A study of Rattus norvegicus with 6 samples.

Results

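The 10 genes described here encode receptors and signalling proteins that sense microbial products and molecules released by damaged tissue: the Toll-like receptors Tlr2, Tlr3, Tlr4, Tlr5 and Tlr7, the co-receptor Cd14, the adaptor Myd88, the lectin receptor Clec7a, and the inflammasome genes Nlrp3 and Pycard. They were chosen by gene symbol, and all 10 were found among the 18696 genes with group averages. RNA was sequenced from dorsal root ganglia (DRG) of SD rats, the tissue that houses the somata of sensory neurons. For 3 libraries the animals underwent spared nerve injury (SNI): the common peroneal and tibial nerves were tied and cut, a stretch of the distal ends was removed and the sural nerve was kept. In the other 3 libraries (sham) the skin was cut, the sciatic nerve and its branches were exposed and the skin was closed. Neither group is labelled with any further treatment or allele. Age, sex, the time after surgery, and the level and side of the ganglia are not stated in these sources. The labels give about 150 mg of tissue per extraction and do not say whether ganglia or animals were pooled, nor that the libraries came from separate animals, so any p-value below measures the spread between these libraries, which may be technical.

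Toll-like receptors recognise conserved microbial molecules and some molecules from injured cells, at the cell surface (Tlr2, Tlr4, Tlr5) or in endosomes (Tlr3, Tlr7). Most of them signal through the adaptor Myd88 to the transcription factor NF-kB, which drives inflammatory cytokine genes, while Tlr3 uses another adaptor, Ticam1. Nlrp3 and Pycard assemble into the inflammasome, a complex that activates caspase-1 and so the release of interleukin-1 beta and interleukin-18, and Clec7a (dectin-1) binds fungal beta-glucan and signals through the kinase Syk. In a sensory ganglion these genes are known mainly from macrophages, with some receptors also described in neurons and glia.

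All 10 genes had a higher average in SNI than in sham, where 53.1% of all 18696 genes did. Their folds, as ratios of average TPM (transcript abundance corrected for gene length and scaled to the same total in each library), ran from 1.35 for Tlr4 to 4.06 for Clec7a, with a median of 1.88 beside 1.02 over all genes. Among the 7817 genes whose mean read counts lay within the range of these 10, the median fold was 1.05 and 57.0% had a higher average in SNI. The authors' deposited list of higher genes held Tlr2, Cd14 and Clec7a, that is 3 of the 10 beside 3.63% of all genes with averages and 6.81% of those within the same range of reads. Their list of lower genes held 0 of the 10, beside 0.695% of all genes. The criterion behind the authors' lists is not stated in these sources. On the log2 scale a pseudocount of 1 TPM was added, which makes the ratios of low genes smaller, and the 10 ratios ran from 0.10 (Tlr5) to 1.71 (Clec7a) with a median of 0.78 beside 0.017 over all genes.

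**Figure D1:**
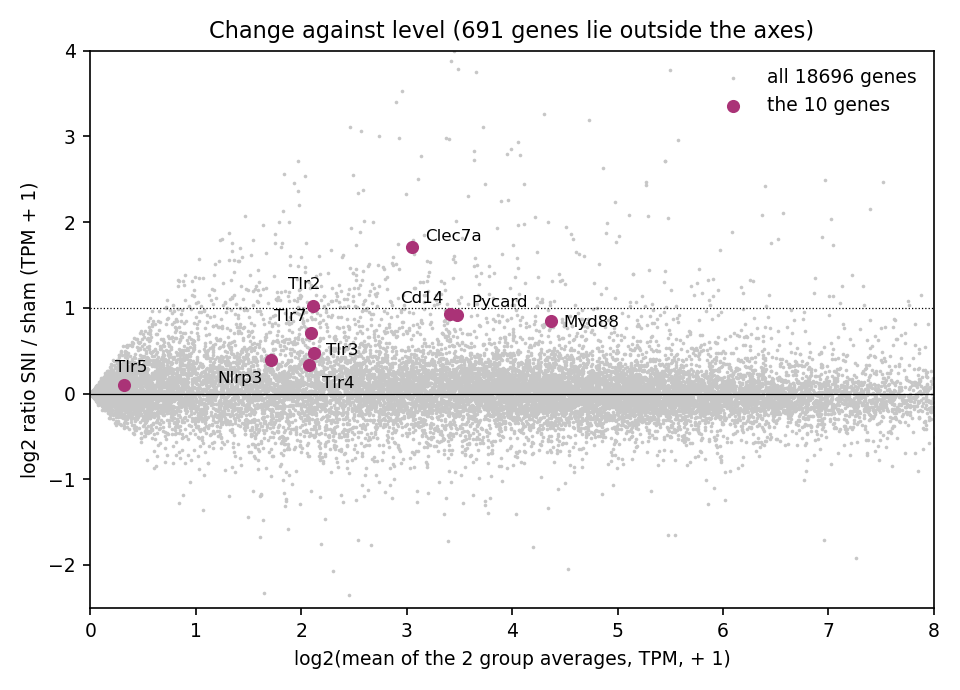
Log2 ratio of SNI over sham (average TPM, pseudocount 1, vertical axis) against the log2 mean level (horizontal axis) for all 18696 genes in grey and the 10 genes in purple. The solid line marks no change and the dotted line a ratio of 2; all 10 genes lie above the solid line, Clec7a and Tlr2 lie above the dotted line, and 691 genes lie outside the axes.

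These 10 genes have values for each group only. None of them (0 of 10) was among the 1637 genes with TPM for each library, so the spread between libraries is not known for them and no test of their difference was run. In its place each read ratio below has a 95% interval that treats reads as independent counts (exact Clopper-Pearson, on the reads of 3 libraries summed). Such an interval covers counting error only and says nothing of the variation between libraries. How the authors chose the 1637 genes with TPM for each library is not stated. Adjusted p-values and shares of genes tested below refer to those genes only, not to all genes with averages. Over all genes, the average reads came to 18.6 M for sham and to 18.6 M for SNI. In bulk tissue, more cells of a type and more RNA per cell cannot be told apart. The sensory neuron markers checked (8 of 8) lay between 123 TPM (Rbfox3) and 7588 TPM (Nefl) on average, so the markers of the labelled tissue were present.

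The adaptor Myd88 was the most abundant of the 10 in both groups, at 13.8 TPM in sham against 25.6 TPM in SNI, and made up 33.4% of their summed TPM in sham and 30.6% in SNI. In sham, Pycard and Cd14 came next at 6.70 and 6.33 TPM, with counting intervals that overlapped. Clec7a (2.89 TPM), Tlr4 (2.73 TPM), Tlr3 (2.63 TPM), Tlr7 (2.25 TPM), Tlr2 (1.85 TPM) and Nlrp3 (1.85 TPM) followed in that order, and each overlapped its neighbour in the order. Tlr5 was lowest in both groups, at 0.200 TPM in sham against 0.290 TPM in SNI. In SNI the first 4 genes kept their places. Clec7a, 4th in both groups, stood at 11.7 TPM, its interval overlapping that of Cd14 (12.98 TPM) and lying above those of all 5 Toll-like receptors. Tlr2 was 8th in sham and 5th in SNI, while Tlr4 was 5th in sham and 8th in SNI, and Tlr3 and Tlr7 changed places. From Tlr2 to Tlr4 in the SNI order (Tlr2, Tlr7, Tlr3, Tlr4), each interval overlapped that of its neighbour. Those of Tlr3 and Tlr7 overlapped in both groups, so their order is uncertain in each. Together the 10 genes summed to 41.2 TPM in sham and 83.7 TPM in SNI.

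**Figure D2:**
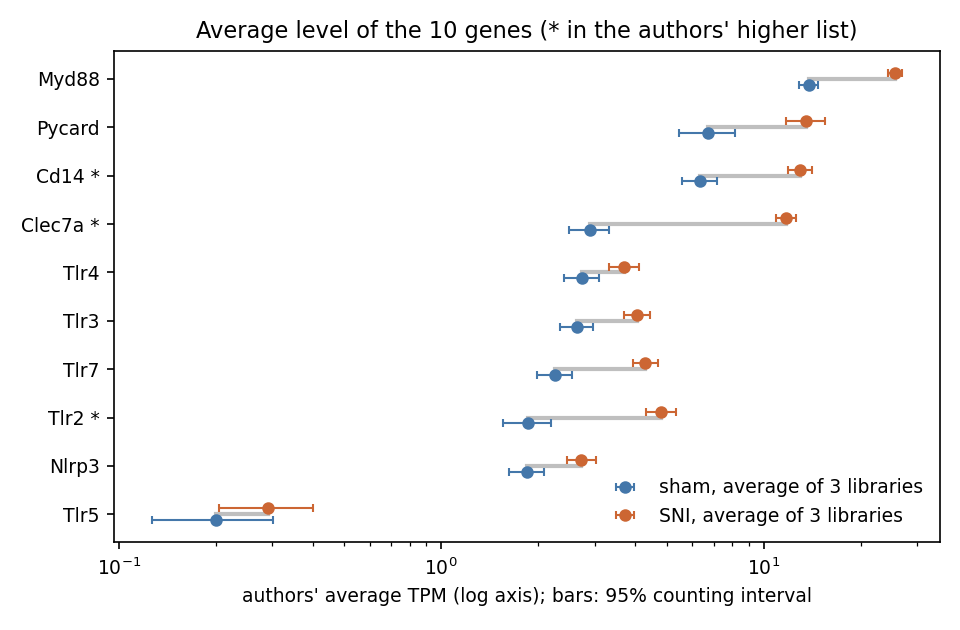
Authors' average TPM (horizontal log axis) of each of the 10 genes in sham (blue) and SNI (orange), each the average of 3 libraries, with bars for the 95% counting interval and an asterisk at the 3 genes in the authors' higher list. Every orange point lies to the right of its blue point, with the widest gap at Clec7a (2.89 and 11.7 TPM) and overlapping intervals at Tlr5.

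Windows of 250 bases before the RefSeq start site of each gene were read from the GRCr8 assembly for all 10 genes, and 4 of them are printed here, those of the 3 genes in the authors' higher list and of Myd88, the most abundant gene. The build of the deposited files is not given, and these coordinates are those of GRCr8. Capitals mark matches, on either strand, to AP-1 (TGANTCA), PU.1 (GAGGAAG), the interferon-stimulated response element (GAAA, any 2 bases, GAAA) and to the consensus of NF-kB. Positions are counted back from the start site. The window of Tlr2 (chr2:171504558-171504807, minus strand) held NF-kB matches at -206 to -196, where 2 of them overlap, and at -42 to -33. That of Cd14 (chr18:28611159-28611408, minus strand) held PU.1 matches at -140 to -134 and -105 to -99. That of Myd88 (chr8:127956231-127956480, minus strand) held an AP-1 match at -208 to -202 and a response element at -16 to -7. That of Clec7a (chr4:164599828-164600077, minus strand) held none of the 4 motifs.
Tlr2: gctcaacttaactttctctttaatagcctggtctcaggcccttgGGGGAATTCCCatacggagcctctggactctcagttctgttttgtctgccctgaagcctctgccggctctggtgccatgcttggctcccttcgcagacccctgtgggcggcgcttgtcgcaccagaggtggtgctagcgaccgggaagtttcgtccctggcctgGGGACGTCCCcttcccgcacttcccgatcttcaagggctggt
Cd14: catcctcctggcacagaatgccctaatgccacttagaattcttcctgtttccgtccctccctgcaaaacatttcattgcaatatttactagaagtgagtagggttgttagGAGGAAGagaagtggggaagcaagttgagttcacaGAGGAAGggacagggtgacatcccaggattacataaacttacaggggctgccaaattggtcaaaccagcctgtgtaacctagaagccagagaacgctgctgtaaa
Myd88: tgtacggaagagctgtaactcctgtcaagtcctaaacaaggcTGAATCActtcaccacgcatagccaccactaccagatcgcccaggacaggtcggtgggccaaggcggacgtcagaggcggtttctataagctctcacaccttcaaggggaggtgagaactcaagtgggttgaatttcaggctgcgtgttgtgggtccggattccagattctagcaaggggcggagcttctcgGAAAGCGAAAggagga
Clec7a: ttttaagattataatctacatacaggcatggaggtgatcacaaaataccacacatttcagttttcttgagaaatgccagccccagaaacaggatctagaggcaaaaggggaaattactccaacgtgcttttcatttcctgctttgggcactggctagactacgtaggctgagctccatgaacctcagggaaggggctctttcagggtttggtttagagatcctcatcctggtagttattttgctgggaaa

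Of the 10 windows, 1 held the NF-kB consensus (Tlr2), 1 the AP-1 motif and 1 the response element (both Myd88), and 3 the PU.1 motif (Cd14, Tlr4 at -68 to -62 and Nlrp3 at -73 to -67). Over all 33469 windows of this length in the table, 6.33% held the NF-kB consensus, 6.34% AP-1, 3.41% the response element and 10.2% PU.1. A match is a description of the letters and not a binding site, and the windows of Tlr3, Tlr5, Tlr7, Pycard and Clec7a held none of the 4 motifs.

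Among the surface receptors, Tlr2, which senses bacterial lipoproteins with Tlr1 or Tlr6 as partner, averaged 1.85 TPM in sham against 4.81 TPM in SNI. These averages rested on 46.3 and 119 reads, a read ratio of 2.57 with a counting interval of 2.11 to 3.15. Cd14, which hands lipopolysaccharide to Tlr4 and lipoproteins to Tlr2, averaged 6.33 TPM (86.7 reads) in sham and 12.98 TPM (180 reads) in SNI, a read ratio of 2.08 (1.79 to 2.42). The window of Tlr2 held NF-kB matches and that of Cd14 PU.1 matches. PU.1 matches also lay in the windows of Tlr4 and Nlrp3, which had lower ratios. The window of Clec7a, with the highest ratio, held no match, and a link between motifs and ratios was not tested. The lipopolysaccharide receptor Tlr4 had a lower ratio than its co-receptor: it averaged 2.73 TPM (83.0 reads) and 3.70 TPM (113 reads), a read ratio of 1.37 (1.16 to 1.61) whose interval did not reach that of Cd14 or Tlr2. Tlr5, the receptor of bacterial flagellin, had 7.67 reads on average in sham and 12.3 in SNI. Its read ratio of 1.61 (0.931 to 2.84) was the only one of the 10 whose counting interval held 1, so no difference beyond counting error was seen for Tlr5. For the other 9 an interval above 1 is not a test, as the spread between libraries is unknown.

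Of the endosomal receptors, Tlr7, which senses single-stranded RNA, averaged 2.25 TPM (88.7 reads) in sham and 4.30 TPM (162 reads) in SNI, a read ratio of 1.83 (1.57 to 2.13). Tlr3, which senses double-stranded RNA, averaged 2.63 TPM (97.7 reads) and 4.06 TPM (147 reads), a read ratio of 1.51 (1.30 to 1.75). The intervals of these ratios overlapped. The 5 Toll-like receptors together summed to 9.67 TPM in sham and 17.2 TPM in SNI, a ratio of 1.78, and Tlr2 was the 1 of them in the authors' higher list.

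Myd88, which connects most Toll-like receptors and the interleukin-1 receptor to their kinases, averaged 273 reads in sham and 506 in SNI. Its read ratio of 1.86 (1.70 to 2.02) had the narrowest interval of the 10, and it was in neither of the authors' lists. Clec7a had the highest ratio of the 10: it averaged 2.89 TPM (63.3 reads) in sham and 11.7 TPM (254 reads) in SNI, a read ratio of 4.01 (3.41 to 4.72) whose interval lay above those of the other 9. Of all 18696 genes, 383 had a higher fold than Clec7a, 865 a higher one than Tlr2 and 3333 a higher one than Tlr4 with no pseudocount. With a pseudocount of 1 TPM, which makes the ratios of genes with low TPM smaller, 114, 410 and 2441 genes had a higher ratio than Clec7a, Tlr2 and Tlr4.

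Of the inflammasome genes, the adaptor Pycard (ASC) averaged 6.70 TPM (33.7 reads) in sham and 13.5 TPM (68.3 reads) in SNI, a read ratio of 2.03 (1.59 to 2.60). The sensor Nlrp3 averaged 1.85 TPM (83.3 reads) and 2.72 TPM (124 reads), a read ratio of 1.49 (1.27 to 1.76). Pycard was in neither of the authors' lists although its fold of TPM, 2.02, lay close to that of Cd14, 2.05. Of the 974 genes that were at least 2-fold higher in SNI and had at least the reads of the lowest gene listed, 672 (69.0%) were in the higher list. Without a pseudocount 4 of the 10 genes (Clec7a, Tlr2, Cd14 and Pycard) were at least 2-fold higher, beside 7.66% of all genes and 8.11% of those within the same range of reads, and with a pseudocount of 1 TPM 2 were (Clec7a and Tlr2), beside 2.32%. For Cd14 and Nlrp3 in both groups, and for Tlr7 in SNI, the deposited average reads were not whole when multiplied by 3 (tolerance 0.001), so some of their reads were divided or weighted in the counting. This is common in these data: by the same rule 65.4% of all genes were whole in sham and 64.8% in SNI.

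Markers of macrophages, the cells best known for these genes, had higher averages in SNI too. All 10 macrophage markers had a higher average TPM in SNI, beside 53.1% of all genes with averages. In the authors' higher list were 7 of them, beside 3.63% of all genes with averages. None was at 0 in either group, and their summed TPM was 121 in sham and 273 in SNI, a ratio of 2.26. The summed TPM of the 10 sensing genes had a ratio of 2.03. Relative to that macrophage sum, Clec7a was 1.79 times as high in SNI as in sham and Tlr2 1.15 times, while the other 8 genes lay between 0.599 (Tlr4) and 0.906 (Cd14). The markers differed among themselves: Itgam, an integrin of myeloid cells, had a fold of 3.66, and Cd163 and Mrc1, scavenger and mannose receptors of resident macrophages, had folds of 1.03 and 1.15 (and Cd163 a read ratio of 0.980). None of the macrophage markers had a higher fold than Clec7a, 5 had a higher one than Tlr2, and 8 a higher one than Tlr3, Tlr4, Tlr5, Myd88 or Nlrp3. The counting interval of Clec7a, 3.41 to 4.72, held the fold of Itgam. Of the 3 macrophage markers with TPM per library, Msr1 rose (log2 fold change 1.50, limma adjusted p = 2.3e-06), and Mrc1 and Cd163 did not pass (0.18 and 0.04, limma adjusted p = 0.073 and 0.73). For these calls and those of the markers below, 32.0% of the 1596 genes tested rose and 29.2% fell. Neutrophil markers had higher averages for 6 of 8, with a summed TPM of 312 in sham and 490 in SNI. Most of that sum came from S100a8 (101 and 147 TPM) and S100a9 (160 and 262 TPM). Mpo, the 1 neutrophil marker tested per library, did not pass (log2 fold change -0.07, limma adjusted p = 0.62). Erythrocyte markers were higher for 4 of 4 (summed TPM 200 and 656), and the 4 tested rose. T cell markers were higher for 5 of 5 (6.10 and 11.6), and the 2 tested, Cd3e and Cd8a, rose. Monocyte markers were higher for 4 of 4 (25.7 and 38.96). Of the 2 tested, Vcan rose and Fcnb did not pass (limma adjusted p = 0.67). Sensory neuron markers had lower averages for 6 of 8 (summed TPM 28101 and 24615, median fold 0.757), and the 2 tested, Scn10a and Snap25, fell. B cell markers were lower for 3 of 4 (summed TPM 3.51 and 2.57), and only 1 reached 1 TPM in a group. Dendritic cell markers were higher for 3 of 4, with a lower summed TPM in SNI (19.4 and 15.4). Schwann cell markers were lower for 4 of 5 (8091 and 4244), and the 3 tested fell. Satellite glia markers were higher for 4 of 5, with a lower summed TPM in SNI (8789 and 8039). Endothelial markers were higher for 3 of 4 (46.9 and 51.2) and fibroblast markers for 2 of 4 (745 and 709). The part of these cell types in the values of the 10 genes was not tested.

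**Figure D3:**
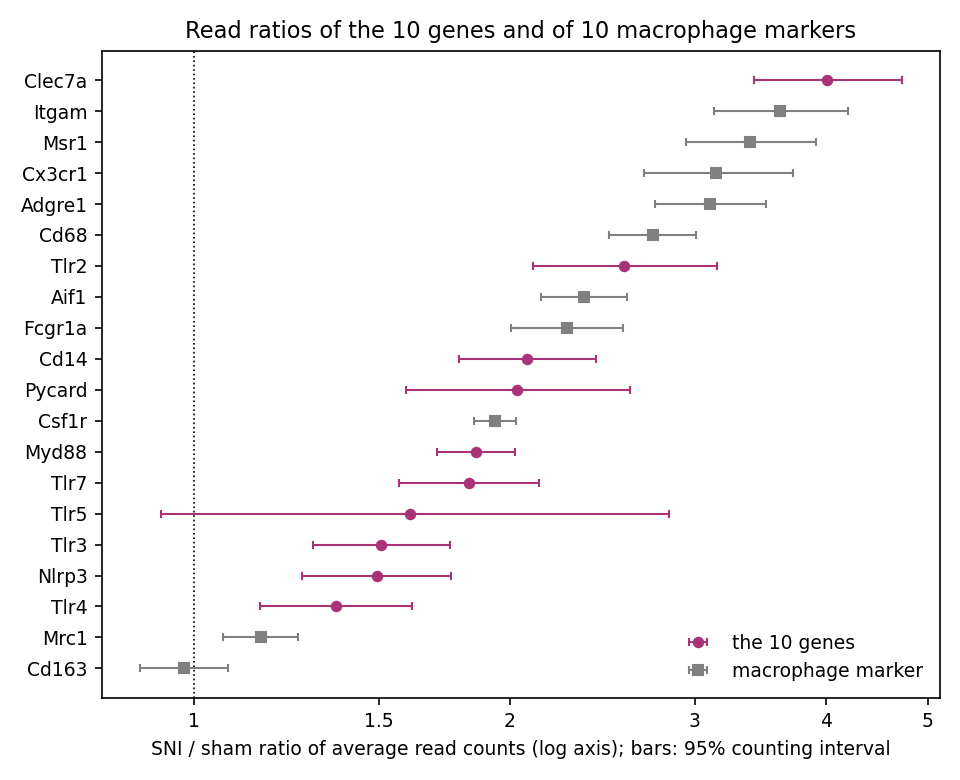
Ratio of average read counts, SNI over sham (horizontal log axis), for the 10 genes (purple circles) and 10 macrophage markers (grey squares), with bars for the 95% counting interval and a dotted line at 1. The point of Clec7a (4.01) lies above that of every macrophage marker, but its bar, 3.41 to 4.72, holds the TPM fold of Itgam (3.66). Tlr2 (2.57) and Cd14 (2.08) lie among the markers, and Tlr4 (1.37) lies near the bottom with Mrc1 and Cd163.

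Of the 8 other Toll-like receptors of the rat, 7 had a higher average in SNI and 1 a lower one, and 3 were in the authors' higher list. Among all genes with averages, 53.1% had a higher average and 3.63% were in that list. Only 4 of the 8 reached 1 TPM in a group, and Tlr10, Tlr11 and Tlr12 had 5.67 reads or fewer on average. The median fold was 2.10 with no pseudocount, and the median log2 ratio with a pseudocount of 1 TPM was 0.42. Tlr1, the partner of Tlr2, was the 1 Toll-like receptor with TPM per library. It stood at 1.27, 1.44 and 1.40 TPM in the sham libraries and at 4.08, 4.04 and 3.97 TPM in the SNI libraries. The groups did not overlap, and the log2 fold change on the log2(TPM + 1) scale was 1.09 (SE 0.10, limma adjusted p = 1.2e-05). Tlr1 and its neighbour Tlr6 (6.33 and 9.34 TPM on average) are close paralogs whose reads may be shared, so both values are uncertain. Tlr8, a sensor of single-stranded RNA, averaged 1.32 and 3.40 TPM and Tlr13, a sensor of bacterial ribosomal RNA in rodents, 1.75 and 3.60 TPM, and both were in the authors' higher list. Over all 13 Toll-like receptors with averages, 12 were higher in SNI, 4 were in the higher list (Tlr1, Tlr2, Tlr8 and Tlr13) and the summed TPM was 21.0 in sham and 38.6 in SNI.

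The co-receptors and chaperones of the Toll-like receptors had a higher average in SNI for 8 of 10 genes (median fold 1.46), beside 53.1% of all genes. Both genes with TPM per library rose, beside 32.0% of all genes tested. Lbp, the plasma protein that loads lipopolysaccharide onto Cd14, stood at 5.63, 6.29 and 5.45 TPM in the sham libraries and at 13.2, 12.6 and 13.3 TPM in the SNI libraries (log2 fold change 1.05, SE 0.08, limma adjusted p = 3.0e-06). Cd180, a relative of Tlr4 on B cells and myeloid cells, stood at 1.97, 1.17 and 1.45 TPM in sham and at 4.77, 5.27 and 4.80 TPM in SNI (log2 fold change 1.24, SE 0.13, limma adjusted p = 3.1e-05). For both genes every SNI library lay above every sham library, as it did for 35.3% of the 1596 genes tested. Ly96 (MD-2), which binds lipopolysaccharide together with Tlr4, averaged 4.64 and 6.60 TPM, a fold of 1.42 beside 1.35 for Tlr4. Unc93b1, which carries the endosomal receptors to their compartment, averaged 22.4 and 33.5 TPM, a fold of 1.49 beside 1.54 for Tlr3 and 1.91 for Tlr7.

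Downstream of the receptors, of 18 adaptors and kinases, 14 had a higher average in SNI and 4 a lower one, and the median fold was 1.22. None was in the authors' lists. Among all genes with averages, 53.1% had a higher average and 3.63% were in the higher list. Ticam1, the adaptor of Tlr3, had the highest fold of the list at 1.81 (2.08 and 3.77 TPM), and the kinase Irak4, which Myd88 recruits, averaged 7.41 and 11.9 TPM. All 10 transcription factors had a higher average, with a median fold of 1.33. Spi1 (PU.1) and Irf8, factors of the myeloid lineage, averaged 12.2 and 5.23 TPM in sham against 26.7 and 13.4 TPM after SNI and were the 2 in the authors' higher list. Irf7, which acts in interferon production after Tlr7 signalling (named after its values were seen), did not pass the test per library (84.4 ± 2.80 and 85.7 ± 3.19 TPM, SD, n = 3 each, limma adjusted p = 0.73). Of 12 inhibitors of the pathway, 11 had a higher average (median fold 1.19), and Irak3, a brake on Myd88 signalling, and Nfkbiz, an NF-kB regulator, were in the authors' higher list at 7.52 and 14.9 TPM and at 0.987 and 2.68 TPM.

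Among the other inflammasome genes, 13 of 15 had a higher average in SNI, beside 53.1% of all genes with averages. Their median fold was 1.83 with no pseudocount, and their median log2 ratio 0.49 with 1 TPM added. In the authors' higher list were 3 of them, beside 3.63% of all genes with averages. The cytokines that the complex releases were 2 of these: Il18 averaged 5.07 and 12.7 TPM, and Il1b 1.66 and 4.11 TPM on 19.7 and 48.7 reads. Casp1, the protease that Pycard recruits, averaged 3.88 and 7.50 TPM, a fold of 1.94 beside 2.02 for Pycard and 1.47 for Nlrp3, and was in neither list. P2rx7, the ATP-gated channel known to trigger Nlrp3, averaged 8.06 and 13.7 TPM. The C-type lectins and their signalling genes had the highest median fold of the sensor lists, 2.42, with 13 of 14 higher and 8 in the authors' higher list. Clec4a1 and Clec4a3, lectins of myeloid cells, averaged 10.96 and 11.7 TPM in sham against 30.6 and 30.8 TPM after SNI, but they belong to a cluster of similar genes that may share reads. Clec4e (Mincle), which binds mycobacterial glycolipid, had 1.00 read on average in sham and 12.3 in SNI, a ratio with a counting interval of 3.91 to 62.5. Syk, the kinase that Clec7a signals through, averaged 1.90 and 4.21 TPM and was in the higher list, while Card9, the next adaptor, was at 2.87 and 4.52 TPM (both named after their values were seen).

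Cytosolic sensors of nucleic acid and peptidoglycan had a median fold of 1.20. None of the 10 was in the authors' higher or lower list, beside 3.63% and 0.695% of all genes with averages. Of 4 tested per library, 2 rose: Zbp1, a sensor of left-handed nucleic acid, from 4.95 ± 0.0917 to 8.62 ± 0.370 TPM (SD, n = 3 each, limma adjusted p = 3.8e-05) and the RNA sensor Ddx58 (RIG-I) from 12.7 ± 0.634 to 15.3 ± 0.327 TPM (limma adjusted p = 0.0065), beside 32.0% of all genes tested that rose. After quantile normalization the call of Ddx58 was lost (log2 fold change 0.12, limma adjusted p = 0.056). Ifih1 and Dhx58 did not pass (limma adjusted p = 0.086 and 0.076).

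**Figure D4:**
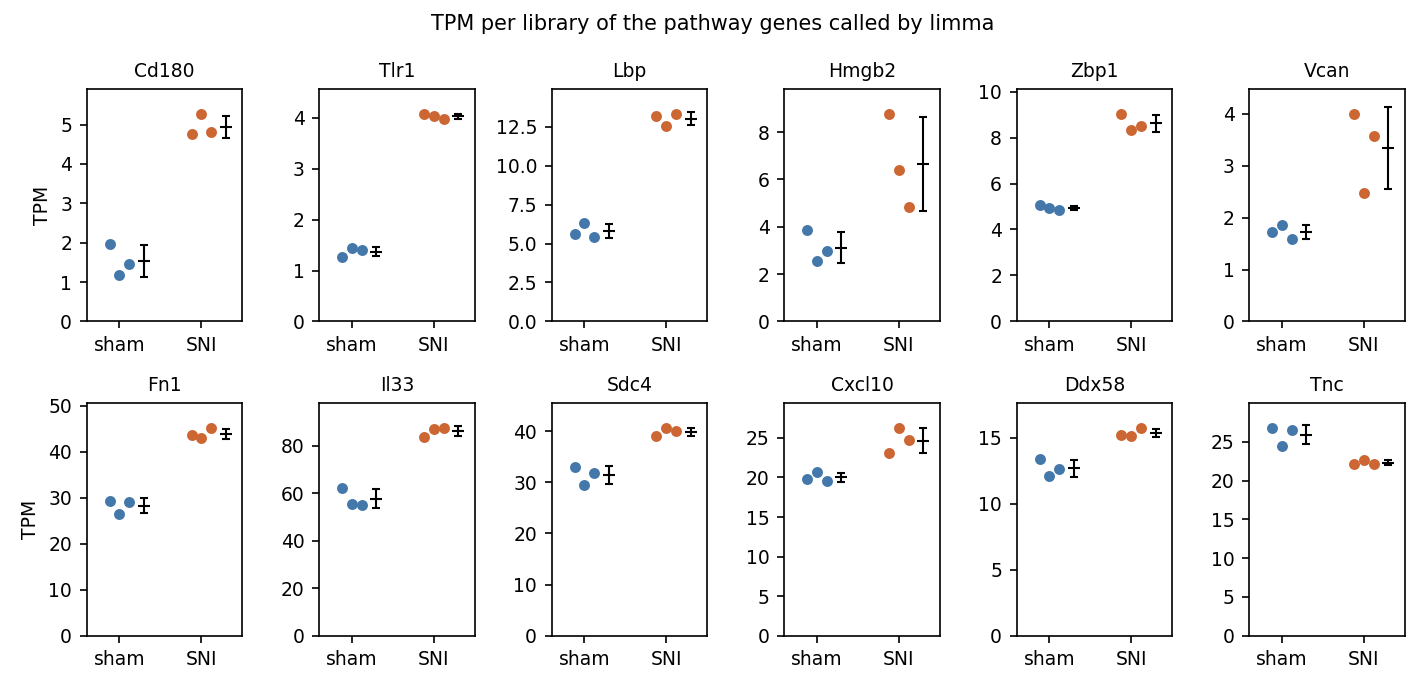
TPM (vertical axes, from 0) in each of the 3 sham (blue) and 3 SNI (orange) libraries for the 12 pathway genes that passed the limma test, with the mean and SD in black. In all 12 panels the groups do not overlap, as the choice of genes that passed the test makes likely. Of the 1596 genes tested, 35.3% had every SNI library above every sham library and 31.3% had every one below. Tnc is the 1 gene lower in SNI, and the 3 SNI libraries of Hmgb2 and Vcan lie farther apart than those of Tlr1 or Lbp.

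Of 15 genes for endogenous ligands, 11 had a higher average in SNI and 3 were in the authors' higher list (median fold 1.46). Among all genes with averages, 53.1% had a higher average and 3.63% were in that list. Of 8 tested per library, 5 rose, 1 fell and 2 did not pass, beside 32.0% of all genes tested that rose and 29.2% that fell. The alarmin Il33 rose from 57.7 ± 4.02 to 86.1 ± 2.16 TPM (SD, n = 3 each, limma adjusted p = 2.8e-05) and fibronectin, Fn1, a matrix protein with a Tlr4-binding domain, from 28.3 ± 1.68 to 43.9 ± 1.07 TPM (limma adjusted p = 1.7e-05). The chromatin protein Hmgb2 stood at 3.85, 2.55 and 2.96 TPM in sham and at 8.77, 6.39 and 4.83 TPM in SNI, and the proteoglycan Vcan, a Tlr2 ligand, at 1.73, 1.85 and 1.58 TPM and at 4.0, 2.47 and 3.57 TPM. Both rose (limma adjusted p = 0.0029 and 0.0035), and both calls were lost after quantile normalization (limma adjusted p = 0.068 and 0.15, the highest of the 10 alternatives, whose lowest were 0.00028 and 0.00075). Tenascin C, Tnc, another matrix ligand of Tlr4 (named after its values were seen), fell by 0.21 on the log2 scale (limma adjusted p = 0.011), with every SNI library below every sham library, as for 31.3% of the genes tested. S100a8 and S100a9, the calprotectin subunits that Tlr4 senses, averaged 101 and 160 TPM in sham against 147 and 262 TPM after SNI and are also neutrophil genes.

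Cytokine and enzyme genes known as targets of these receptors included some of the highest folds. Of 15, 13 had a higher average and 6 were in the authors' higher list, beside 53.1% and 3.63% of all genes with averages. The median fold was 2.51 with no pseudocount, but only 9 of the 15 reached 1 TPM in a group, and the median log2 ratio with a pseudocount of 1 TPM was 0.60. Il6 averaged 0.333 reads in sham and 54.0 in SNI, a ratio with a counting interval of 28.7 to 6438. The monocyte chemoattractant Ccl2 averaged 27.9 and 106 TPM and Il1rn, the decoy ligand of the interleukin-1 receptor, 1.51 and 8.27 TPM. Tnf was at 0.880 TPM in sham against 0.850 TPM in SNI on 13.3 and 13 reads (named after its values were seen). Cxcl10, a chemokine of the interferon response, rose from 20.0 ± 0.582 to 24.7 ± 1.59 TPM (SD, n = 3 each, limma adjusted p = 0.0036).

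Over all of these lists, 108 of 127 genes with averages were higher in SNI, with a median fold of 1.46. Among all genes with averages, 53.1% were higher and the median fold was 1.02. In the authors' higher list were 29 of the 127, beside 3.63% of all genes with averages. Of the 17 pathway genes with TPM per library, 11 rose, 1 fell and 5 did not pass at a limma adjusted p under 0.05, beside 32.0% of the 1596 genes tested that rose and 29.2% that fell. After quantile normalization 7 of the 17 rose and 1 fell, beside 25.2% and 38.1% of the genes tested. The calls lost were those of Hmgb2, Vcan, Ddx58 and Cxcl10, the last 2 at limma adjusted p = 0.056 and 0.053, where the lowest of their 11 alternatives were 0.0043 and 0.0034.

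**Figure D5:**
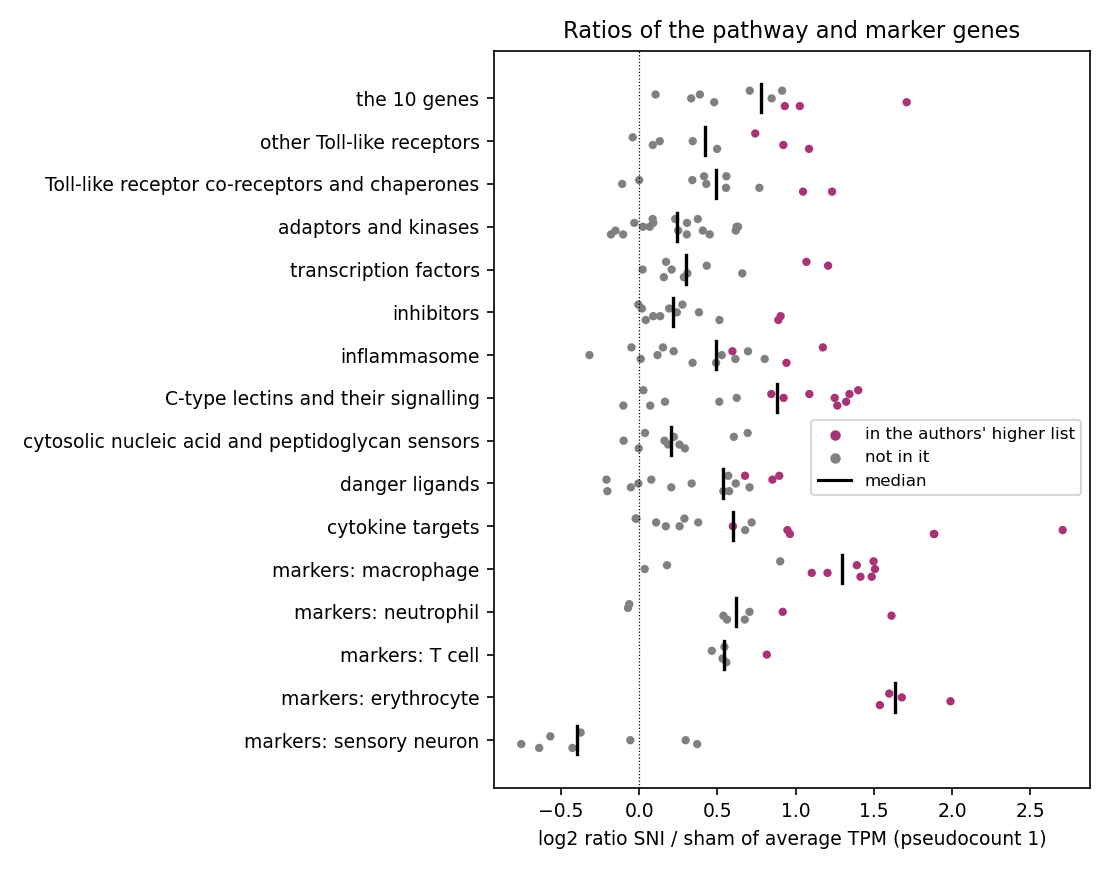
Log2 ratio of SNI over sham (average TPM, pseudocount 1) for every gene of each list, purple where the gene is in the authors' higher list and grey where it is not, with the median as a black bar. The 10 genes have a median of 0.78, the adaptors and kinases 0.24, the C-type lectins 0.88 and the macrophage markers 1.30.

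In the pathway names that the authors' deposited list of 699 higher genes carries, 14 genes have the term for Toll-like receptor signalling, with Tlr2 and Cd14 among them beside Tlr1, Tlr8, Lbp, Il1b and Il6. The phagosome term has 30 genes, among them Tlr2, Cd14 and Clec7a, and the term for C-type lectin receptor signalling has 9, among them Clec7a, Syk, Clec4d and Clec4e. The term for NOD-like receptor signalling has 15 genes, with Nlrc4, Il18 and Il1b. Nlrp3 and Pycard are in neither list, so they could not be counted under any term here. In the authors' deposited list of lower genes, the terms for Toll-like and C-type lectin receptor signalling have no gene, and those for NOD-like receptor and NF-kappa B signalling have 1 each. Only 312 of the higher and 49 of the lower genes carry any term.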

How the data were processed

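TPM for each library (1637 genes) and, for 18696 genes, the TPM and read counts averaged over a group's libraries were used as the authors deposited them, per the file headers. The deposited read counts are estimated counts, not all whole. The sources used here do not name the aligner, counter, build or strand setting. They also do not say how the authors chose their lists or the 1637 genes with TPM for each library. Without strand, reads of overlapping genes cannot be told apart. Columns named control were taken as sham. TPM keeps no depth, so the depth of each library is unknown.

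The ratios of averages have no test. Their counting intervals used scipy 1.17.1 (Python 3.11.15). The 1596 genes averaging 1 TPM or more over the libraries (41 were left out) were compared with limma 3.58.1 (R 4.3.3) on log2(TPM + 1). The fit used an intensity trend and Benjamini-Hochberg adjustment. It was tried on simulated libraries with independent noise and fewer changed genes, which does not check the p-values for these libraries. The planned test of the 10 genes in that fit could not be run, as 0 of them were in the table. With 3 libraries a group the smallest two-sided permutation p is 0.1, so none was run. Members and lists were chosen with earlier results of these data known. Genes named are, for each list, up to 4 that passed the test and up to 4 others with the largest ratio and at least 1 TPM in a group, less a few left out, and some outside this rule, chosen after their values were seen. Promoter windows came from RefSeq (GRCr8), with all 10 genes matched by ID.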

Additional observations from a re-analysis of the deposited data

How the results depend on the processing

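All 10 sensing genes kept a higher value in SNI under each of the 4 alternatives to the ratio of average TPM (pseudocount 0.1, none, average reads, and scaling by the median of expressed genes, which was 1.04 times as high in SNI). This count is no check of the direction. A pseudocount cannot change it, the scaling of 1.04 lies below the lowest fold, 1.35 (Tlr4), and the reads come from the same libraries. The number at least 2-fold higher, 2 as reported, was 4 with a pseudocount of 0.1, 4 with none, 3 with average reads and 1 after scaling by the median; the folds of these low genes depend on the pseudocount by its construction. Leaving out a library could not be tried for the 10 genes, as their values are group averages.

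Among the 17 pathway genes tested per library, 11 rose as reported and 7 rose at a mean of at least 5 TPM, where 13 were tested, and 7 after quantile normalization. Quantile normalization also took Dhx58 from 0.16 to -0.014 and Ifih1 from 0.22 to -0.0061 on the log2 scale, both without a call, and moved the calls over all 1596 genes from 510 higher and 466 lower to 402 and 608; the cause was not tested. Leaving out each library in turn gave 442 to 522 higher and 381 to 477 lower genes, and 11 to 12 of the pathway genes higher, Ifih1 passing without SNI replicate 1 (limma adjusted p = 0.035, within 0.035 to 0.96 over its 11 alternatives). With the replicate number as a block, 498 genes were higher and 447 lower, with 11 and 1 of the pathway genes. Same-numbered libraries did not deviate together (correlations across genes of -0.088, -0.059 and 0.19 for numbers 1, 2 and 3), so the numbers were not taken as pairs.

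Depth limits Tlr5 most, with 7.67 and 12.3 reads on average, and the spread between libraries is unknown for all 10 genes.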
